A study of Mus musculus with 3 samples.

Results

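The 10 genes described here are Slc2a3 and Slc2a1, which encode the glucose transporters GLUT3 and GLUT1, and the glycolysis genes Hk1, Hk2, Pfkp, Aldoa, Tpi1, Gapdh, Eno1 and Ldha. They were chosen by gene symbol, and all 10 were listed in each library, out of 26887 combinations of gene symbol and chromosome listed in at least 1 library. The RNA came from undifferentiated E14 mouse embryonic stem (ES) cells of strain 129/Ola, grown without feeder cells on gelatin, with fetal bovine serum and LIF in the medium. All cells were fixed in 1% glutaraldehyde for 10 min, lysed and sonicated, and the lysate was hybridised at 37 °C with antisense oligonucleotides against a chosen RNA, a method called RNA interactome analysis and sequencing (RIA-seq). The oligonucleotides were against Actb (the control, β-actin mRNA), against Malat1 (a nuclear long non-coding RNA) or against Tfrc (transferrin receptor mRNA), with 1 library for each, named here after its target. Malat1 with Slc2a3 was a pair of interest in the study, and the question addressed here is how Slc2a3 and the other RNAs of its pathway were represented in the 3 libraries.

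Glucose enters the cell through transporters of the SLC2A family and is phosphorylated by hexokinases, which keeps it inside. Phosphofructokinase commits the sugar to glycolysis, aldolase splits it, and triosephosphate isomerase, glyceraldehyde-3-phosphate dehydrogenase and enolase carry the fragments towards pyruvate, which lactate dehydrogenase reduces to lactate. Pluripotent stem cells rely strongly on this pathway, and several of its mRNAs are among the abundant transcripts of most cells.

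With 1 library per condition there was no spread between replicates, so no test between conditions was made, and all intervals below are at the 95% level and cover counting error only. The library totals were between 10078439 and 14553941 counts, and each gene could have a count under its Ensembl identifier and another listed under the name Genome, with the Genome counts making up between 5.25% and 19.0% of a library. Lars2 alone took between 17.0% and 32.0% of the counts. Actb made up 759974 counts in its own library, and its share in the other libraries was 0.0122 and 0.0126 of that share. The share of Malat1 was 5.81-fold higher in the Malat1 library than in the Actb library, but it was also 3.84-fold higher in the Tfrc library. The share of Tfrc in its own library was 2.69-fold that in the Actb library, and in the Malat1 library it was 2.32-fold. All 10 ES cell markers examined had at least 486 counts in every library, while the fibroblast genes Col3a1, Col1a2 and Postn had at most 13. Col1a1 had between 15 and 26 counts and Thy1 between 177 and 275, and the neural, endoderm and mesoderm markers had at most 81. These counts come from bulk lysates with no input library analysed here, so that the amount of an RNA in the lysate and its recovery by the oligonucleotides cannot be told apart, nor can fewer cells of a type and less RNA per cell.

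Because the oligonucleotides were chosen against target RNAs, stretches that a pathway mRNA shares with a target are shown first. The oligonucleotide sequences are not given in the sources used here, so the longest exact run between each member's longest coding transcript and each target RNA was taken instead, in the same sense and in the complementary sense. Those shown are the runs of Slc2a3, Slc2a1 and Gapdh with Malat1, and the run of Slc2a3 with Tfrc. Each sequence is read 5′ to 3′ from NCBIM37, the capitals mark the run, the coordinates are those of the run, and the lower case letters are up to 7 bases on either side.
Slc2a3, complementary to Malat1, chr6:122679884-122679895, minus strand: cccttaaGTGGGGAGACCTcatcagg
Malat1, complementary to Slc2a3, chr19:5796509-5796520, minus strand: tgttacaAGGTCTCCCCACaagtgat
Slc2a1, complementary to Malat1, chr4:118781382-118781394, plus strand: tcctataAAAAGGCAGCTCCgcgcgct
Malat1, complementary to Slc2a1, chr19:5800193-5800205, minus strand: agggactGGAGCTGCCTTTTgtccttg
Gapdh, same sense as Malat1, chr6:125112941-125112955, minus strand: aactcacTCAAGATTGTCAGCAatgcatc
Malat1, same sense as Gapdh, chr19:5801437-5801451, minus strand: aacagttTCAAGATTGTCAGCAttttgca
Slc2a3, same sense as Tfrc, chr6:122686743-122686756, minus strand: tcagatcTTTGGTTTGGACTTtattctg
Tfrc, same sense as Slc2a3, chr16:32632759-32632772, plus strand: aatgcctTTTGGTTTGGACTTgccaacc

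The longest complementary run between Slc2a3 and Malat1 had 12 bases and lay in the last of the 10 exons of the Slc2a3 transcript, in the 3′ UTR. Of 12852 protein-coding genes compared in this way, 82.5% had a complementary run with Malat1 of at least that length, and the median was 13 bases. The complementary run of Slc2a1 with Malat1 had 13 bases, lay in the 5′ UTR in exon 1, and was matched or exceeded by 51.1% of the genes. In the same sense, a stretch that an oligonucleotide against the target would also match, Slc2a3 shared 12 bases with Malat1, a length reached by 81.9% of the genes. The run of Gapdh with Malat1 in the same sense was longer, with 15 bases in its coding sequence, and 11.9% of the genes had a run of that length or more. The 14 bases that Slc2a3 shared with Tfrc lay in the coding sequence, and 11.7% of 12851 genes shared that many. Across the other members, the runs with Malat1 had between 10 and 14 bases in either sense. The longest run with any target was 20 bases between Hk2 and Actb in the same sense, in the Hk2 3′ UTR. It was a tract of the base T ending in AA, and 3.24% of 12851 genes had a run with Actb of at least that length. A run of letters is a description of the sequences and is not a binding site.

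The shares of the 10 genes in the 3 libraries differed by gene. Together the members held 0.256% of the Actb library (interval 0.253 to 0.259%), 0.356% of the Malat1 library (0.352 to 0.359%) and 0.334% of the Tfrc library (0.331 to 0.337%). The transporters, hexokinases and phosphofructokinase, from Slc2a3 to Pfkp, had 0.0971%, 0.218% and 0.162% of the 3 libraries in that order. The enzymes from Aldoa to Ldha had 0.159%, 0.137% and 0.172%. The first 5 genes thus held a smaller share than the last 5 in the Actb library and a larger share in the Malat1 library, whereas in the Tfrc library the shares were closer. This division of the pathway was made after the values were seen, and is used below as a description.

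**Figure D1:**
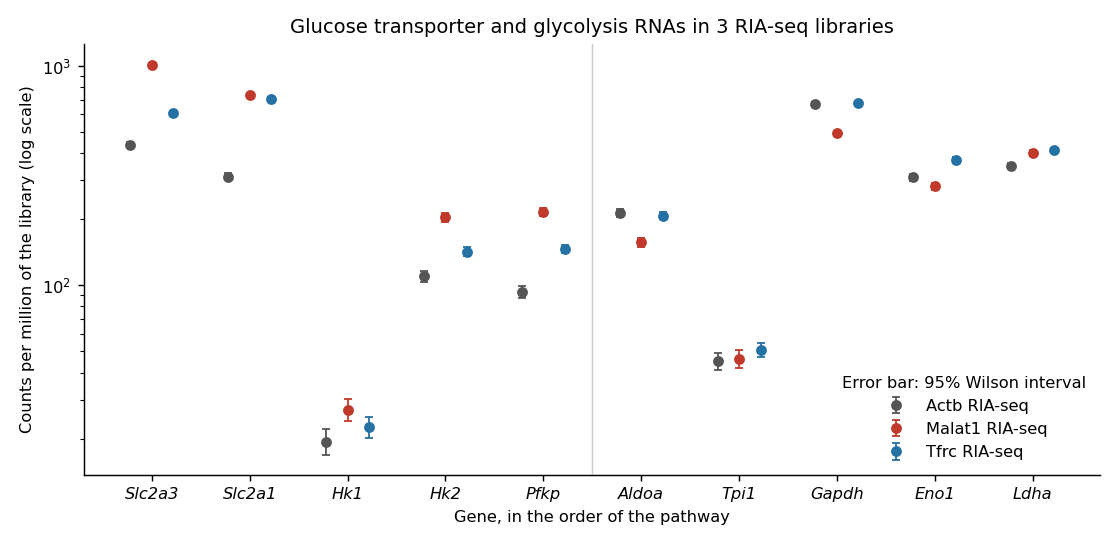
Counts per 1000000 counts of the library, on a log axis, for the 10 genes in the order of the pathway, with 1 point per library and error bars giving the 95% Wilson interval. Slc2a3 is at 436 in the Actb library and 1001 in the Malat1 library, while Gapdh is at 669 and 491, and the vertical line separates the first 5 genes from the last 5.

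Of the glucose transporters, Slc2a3 encodes the high-affinity transporter GLUT3 and lies at chr6:122677827-122751658 on the minus strand (ENSMUSG00000003153). It had 436 counts per 1000000 counts (CPM) in the Actb library, 1001 in the Malat1 library and 608 in the Tfrc library, from 4540, 10089 and 8851 counts. The level was highest in the Malat1 library, and the 3 intervals did not overlap. Slc2a1, which encodes GLUT1, the basal transporter of many cell types, lies at chr4:118781316-118809935 on the plus strand. It had 312 CPM in the Actb library, 736 in the Malat1 library and 702 in the Tfrc library. Slc2a1 was thus low in the control and close to the same level in the target libraries, whereas Slc2a3 was intermediate in the Tfrc library.

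Hexokinases trap glucose by phosphorylating it. Hk1 lies at chr10:61731603-61842656, Hk2 at chr6:82675019-82724448 and Pfkp at chr13:6579014-6648023, all on the minus strand. Hk1, the widely expressed form, was the lowest of the 10 genes with 19.3, 27.0 and 22.5 CPM in the Actb, Malat1 and Tfrc libraries, from 201, 272 and 328 counts. Hk2, the form that is typical of muscle and of cells with high glycolytic rates, had 109.8, 203 and 142 CPM. For Hk1 the intervals of the Actb library (16.8 to 22.2) and the Tfrc library (20.2 to 25.1) overlapped, and the latter also overlapped with that of the Malat1 library (24.0 to 30.4), whereas those of Hk2 were apart in all 3 libraries. Pfkp, a phosphofructokinase isoform, had 93.5, 215 and 145 CPM and followed the same order as Hk2 and Slc2a3, with the Malat1 library highest and the Actb library lowest.

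The members further down the pathway, from Aldoa to Ldha, showed other orders. Aldoa lies at chr7:133938748-133944265, Tpi1 at chr6:124760604-124764314 and Gapdh at chr6:125111871-125116485 on the minus strand, and Eno1 at chr4:149610830-149622988 and Ldha at chr7:54096845-54110997 on the plus strand. Aldoa, the aldolase of muscle and most proliferating cells, had 214 CPM in the Actb library, 157 in the Malat1 library and 207 in the Tfrc library. Gapdh, often taken as a reference gene, had 669, 491 and 676, and Eno1, the ubiquitous enolase, had 309.7, 281 and 371. In these 3 genes the Malat1 library had the lowest level, and for Aldoa and Gapdh the intervals of the other 2 libraries overlapped. Tpi1 had 45.1, 46.1 and 50.6 CPM, with intervals that overlapped between all 3 libraries. Ldha, which makes lactate from pyruvate, had 349, 398 and 412, and was lowest in the control, with overlapping intervals in the target libraries.

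Levels between genes were compared per length, as Ensembl-ID CPM per kb of the longest coding transcript. On this scale Gapdh was first with 465 in the Actb library, 327 in the Malat1 library and 466 in the Tfrc library, and Hk1 was last with 3.71, 3.41 and 3.36. Slc2a3 was the sixth of the 10 genes in the Actb library with 107, the second in the Malat1 library with 239 and the fifth in the Tfrc library with 145. Slc2a1 was the fifth with 108, the third with 229 and the second with 231. The neighbours Slc2a1 and Slc2a3 could not be separated by their intervals in the Actb library and in the Malat1 library, nor could Hk2 and Pfkp in the Actb library and in the Tfrc library, Hk2 and Tpi1 in the Malat1 library, or Slc2a1 and Ldha in the Tfrc library. All other neighbours had intervals that were apart. On this scale both transporters were below Ldha, Eno1 and Aldoa in the Actb library and above them in the Malat1 library, with Gapdh at the top and Hk1 at the bottom in all 3 libraries. The order depended on the length used. With counts divided by all merged exons of a gene, Slc2a3 had 58.5, 130.4 and 79.0 CPM per kb and was the fifth, the third and the fourth, and Slc2a1 was the third, the first and the second. Both were then above Eno1 in all 3 libraries, Slc2a1 was above Aldoa in all 3, and Gapdh was second to Slc2a1 in the Malat1 library. Both transporters were below Ldha in the Actb library and above it in the Malat1 library with either length. With merged exons, however, Slc2a3 (130.4) was close to Ldha (126.9) in the Malat1 library, and no intervals are given for that length.

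The fold of a gene is the ratio of its shares of the library totals. Between the Malat1 library and the Actb library it was 2.29 for Slc2a3 (interval 2.22 to 2.38), 2.36 for Slc2a1 (2.26 to 2.45) and 2.30 for Pfkp (2.13 to 2.48). These 3 of 10 members had a fold of at least 2, and so did 42.1% of the 14572 genes that had 10 counts or more in each of the libraries compared, so that the count of members was near the background. Hk2 had a fold of 1.85 and Hk1 of 1.40. Ldha had 1.14 and Tpi1 1.02, and 3 members were below 1, namely Eno1 with 0.908 (0.864 to 0.955), Gapdh with 0.734 (0.707 to 0.761) and Aldoa with 0.733 (0.687 to 0.782). A fold below 1 was seen in 11.3% of all genes.

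The median gene had a fold of 1.82 in this comparison, a shift of 0.86 on the log2 scale, and the median of the members was 1.27. Relative to the median gene, Slc2a3 had a fold of 1.26 (1.22 to 1.31), Slc2a1 of 1.29 and Pfkp of 1.26, and Hk2 was close to it with 1.02 (0.946 to 1.09). Aldoa and Gapdh had 0.403 of the median gene and Eno1 0.499, while Tpi1, Ldha and Hk1 had 0.562, 0.627 and 0.768. Ldha and Hk1 were therefore above 1 as shares of the library and below 1 relative to the median gene. Slc2a3 stood above 68.8% of the genes, Slc2a1 above 70.6%, Pfkp above 68.8% and Hk2 above 51.5%. At the other end Eno1 stood above 8.15% of the genes, and Gapdh and Aldoa above 3.92% and 3.91%. The transporters thus lay above the median gene but inside the middle 50% of all genes (1.31 to 2.50), and these 3 enzymes were among the lowest 10%. Aldoa, Gapdh and Eno1 were at 0.5 of the median gene or less, as were 8.21% of all genes. Slc2a3 had 2.01 times the median fold of the other 9 members. At a lower limit, 4 of the 10 members had a fold of at least 1.5, against 65.6% of all genes.

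**Figure D2:**
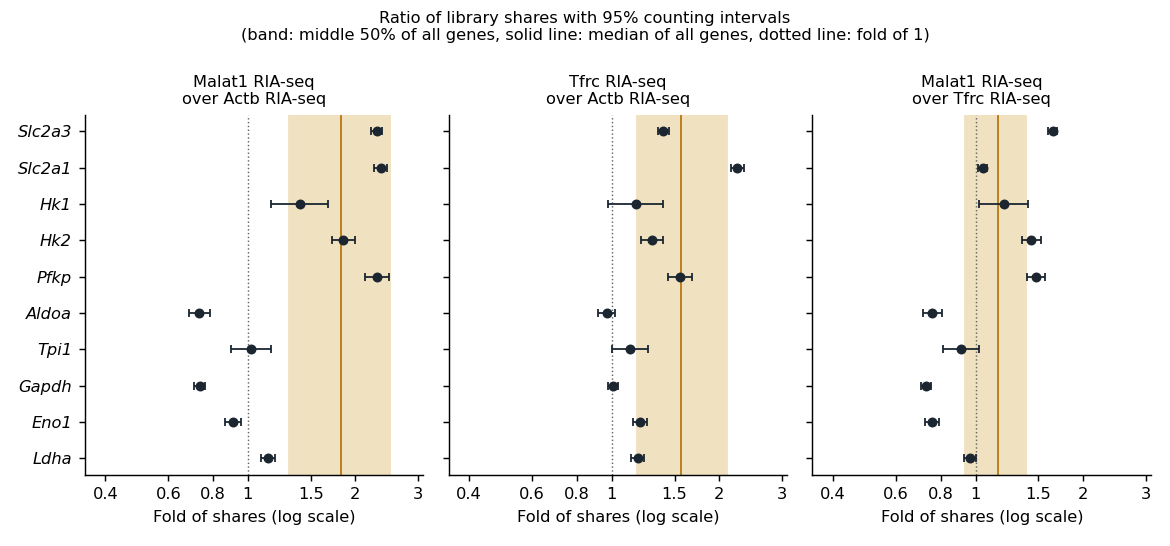
Fold of the library shares of each gene on a log axis, in 3 panels for the 3 comparisons of libraries, with 95% counting intervals. The line marks the median of all genes (1.82, 1.56 and 1.15 from left to right) and the band their middle 50%, and Aldoa, Tpi1, Gapdh and Eno1 lie left of the band in the first and the third panel.

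Between the Tfrc library and the Actb library, a comparison that shares its control with the previous one, the fold was 1.39 for Slc2a3 (1.34 to 1.44) and 2.25 for Slc2a1 (2.16 to 2.34). Slc2a1 was the only member with a fold of at least 2, against 28.6% of 14691 genes. Pfkp had 1.56, Hk2 1.29, Eno1 1.20, Ldha 1.18 and Tpi1 1.12. Hk1 with 1.17 (0.979 to 1.39), Gapdh with 1.01 (0.979 to 1.04) and Aldoa with 0.968 (0.917 to 1.02) had intervals that included 1, and Aldoa was the 1 member below 1, where 12.8% of all genes were. With a limit of 1.5 there were 2 members, Slc2a1 and Pfkp, against 53.3% of all genes. The median gene had a fold of 1.56, a log2 shift of 0.64, and the median of the members was 1.19. Only Slc2a1 stood above the median gene, with 1.44 relative to it and above 79.3% of the genes. Slc2a3 was below it, with 0.894 (0.863 to 0.927), and Pfkp was level with it at 0.998 (0.925 to 1.08). Slc2a3 had 1.18 times the median fold of the other members.

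The target libraries were also set against each other, which leaves out the control. Between the Malat1 library and the Tfrc library the fold was 1.65 for Slc2a3 (1.60 to 1.69), the highest of the members and above 89.1% of 16430 genes. No member reached a fold of 2, and 4.35% of all genes did. Pfkp had 1.48 (1.39 to 1.57), Hk2 1.43 (1.35 to 1.52), Hk1 1.20 and Slc2a1 1.05 (1.02 to 1.08). The 5 enzymes from Aldoa to Ldha were all below 1, as were 32.1% of all genes, with 0.727 for Gapdh, 0.757 for Aldoa, 0.758 for Eno1, 0.911 for Tpi1 and 0.966 for Ldha, and the intervals of Tpi1 and Ldha included 1. The median gene had 1.15, a log2 shift of 0.21, and the members had a median of 1.01. Relative to the median gene, Slc2a3 had 1.43 and Slc2a1 fell below 1 with 0.909. Malat1 itself had a fold of 1.51 between these libraries and Tfrc had 0.864. The fold of Slc2a3 was larger than that of Malat1 in this comparison, but Malat1 stood above only 83.6% of the genes. Other genes thus exceeded it too.

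Ratios between members within a library do not depend on how libraries are scaled. There were 0.652 counts of Slc2a3 per count of Gapdh in the Actb library, 2.04 in the Malat1 library and 0.900 in the Tfrc library. The ratio was 3.13 times as large in the Malat1 library as in the Actb library (2.97 to 3.29) and 1.38 times as large in the Tfrc library (1.32 to 1.45). Per count of Ldha, a gene with almost no counts in near-identical copies, there were 1.25, 2.52 and 1.48 counts of Slc2a3, a change of 2.01 (1.90 to 2.13) between the Actb and Malat1 libraries. Relative to the median gene of that comparison, Gapdh had 0.403, Ldha 0.627 and Slc2a3 1.26. The changes of both ratios thus also held a low denominator. Against its family member Slc2a1, the ratio of Slc2a3 was 1.40 in the Actb library and 1.36 in the Malat1 library, a change of 0.974 whose interval (0.923 to 1.03) included 1, and 0.866 in the Tfrc library. The ratio of the transporters thus differed by no more than counting error between the control and the Malat1 library, and was lower in the Tfrc library. Pfkp had 0.438, 1.37 and 0.703 counts per count of Aldoa, which acts directly after it in the pathway. Per count of Gapdh there were 0.319, 0.319 and 0.306 counts of Aldoa. Hk2 had 5.69 counts per count of Hk1 in the Actb library, 7.54 in the Malat1 library and 6.31 in the Tfrc library.

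The Genome counts gave another picture from the Ensembl-ID counts. They made up 2.84% of the counts of Slc2a3 in the Actb library, 5.65% in the Malat1 library and 5.93% in the Tfrc library, each below the value of the whole library. For Slc2a1 they made up 10.0%, 18.8% and 14.3%, for Hk2 7.44%, 25.4% and 19.2%, and for Pfkp 24.5%, 36.6% and 40.7%. Hk1 had the largest part in the Malat1 library, 46.0% (40.1 to 51.9%), from 125 of 272 counts. These genes have long introns, between 25767 nt in Slc2a1 and 102522 nt in Hk1. Slc2a3, with the lowest Genome parts of them, has 66587 nt. In Tpi1, Gapdh and Aldoa, with 1502 to 2764 nt of intron, Genome counts were at most 8.94%, a value above those of Slc2a3. What the Genome counts cover is not given in the sources used here, and the part of intron length was not tested. In Eno1 they were 3.60% in the Actb library, 21.4% in the Malat1 library and 7.16% in the Tfrc library. Ldha, with 11171 nt of intron, had 1.65%, 4.91% and 2.73%. In every member the Genome part was lowest in the Actb library.

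**Figure D3:**
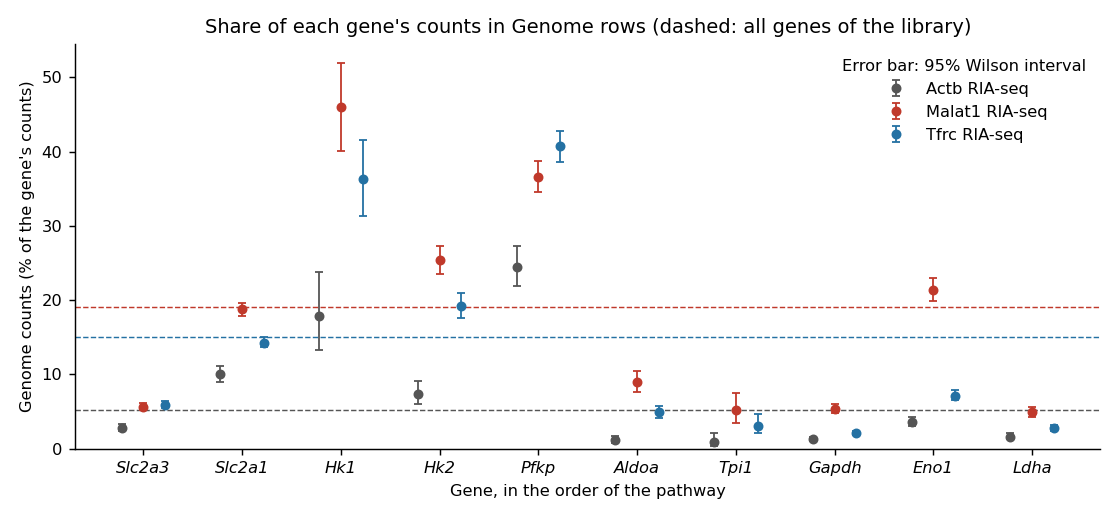
Genome counts as a percentage of each gene's counts in the 3 libraries, with 95% Wilson intervals and dashed lines for the percentage over all genes of a library (5.25, 19.0 and 15.1%). Hk1 and Pfkp lie highest, and Slc2a3 stays between 2.84% and 5.93%.

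With the Genome counts alone, 9 of the 10 members had at least 10 counts in both the Malat1 library and the Actb library, the exception being Tpi1 with only 4 in the Actb library. These 9 had a fold of at least 2, as did 88.6% of 8297 genes, from 2.91 in Gapdh (2.30 to 3.68) to 6.33 in Hk2 (5.03 to 7.96). The fold of Aldoa was 5.60, that of Eno1 5.39 and that of Slc2a3 4.56, where the median gene had 3.60. The order of the members seen in the summed counts was thus not that of the Genome counts. With the Ensembl-ID counts alone, Slc2a3 had a fold of 2.23 (2.15 to 2.31), Slc2a1 of 2.13, Pfkp of 1.93 and Hk2 of 1.49, beside a median gene of 1.41. Slc2a3 and Slc2a1 were the members with a fold of at least 2, against 24.0% of 13195 genes, and they stood above 82.3% and 79.6% of them. Gapdh had 0.704, Aldoa 0.676 and Eno1 0.741. Hk1 went to 0.920 (0.736 to 1.15), so that its fold above 1 in the summed counts came with its Genome counts. In the Tfrc library over the Actb library, 7 of the 9 members with at least 10 Genome counts in both had a Genome fold of at least 2, against 79.6% of genes, and 1 of 10 an Ensembl-ID fold of at least 2, against 14.1%.

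The members differ in length, which the choice of genes did not use. The longest coding transcripts of Aldoa, Tpi1, Gapdh, Eno1 and Ldha have between 1420 and 2027 nt, those of Slc2a1 and Slc2a3 have 2607 and 3959 nt, and those of Pfkp, Hk1 and Hk2 have 4145, 4278 and 5513 nt. Over 12772 protein-coding genes, the fold of the Malat1 library over the Actb library was higher in genes with longer transcripts, with a median of 1.17 up to 1000 nt and of 2.17 above 6000 nt (Spearman's rho 0.296). The corresponding medians were 1.08 and 1.87 in the Tfrc library over the Actb library (rho 0.335), and 1.05 and 1.17 between the Malat1 and Tfrc libraries (rho 0.0362). Genes of 1 library pair share its depth and are not independent replicates, and these values are a description. The part of transcript length in the folds of the members was not tested, but each member can be set beside genes of its own length.

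Slc2a3 had 1.22 times the median fold of the 2390 genes with transcripts of 3000 to 4000 nt between the Malat1 and Actb libraries, and stood above 68.4% of them. Between the Tfrc and Actb libraries it had 0.855 times that median, above 32.1% of them, and between the Malat1 and Tfrc libraries 1.44 times, above 92.1% of them. Slc2a1 had 1.33, 1.5 and 0.907 times the median of its length class, 2000 to 3000 nt, in the same order of comparisons. Between the Malat1 and Tfrc libraries Pfkp and Hk2 had 1.27 and 1.24 times the median of their class, 4000 to 6000 nt. They stood above 87.7% and 84.1% of its genes. The enzymes with short transcripts were low in their own classes too. Gapdh had 0.497 times its class median between the Malat1 and Actb libraries, above 6.21% of 1144 genes, Aldoa 0.443 times, above 3.42% of 1431 genes, and Eno1 0.513 times, above 6.40% of 2845 genes. Tpi1 and Ldha had 0.618 and 0.689 times. Hk1, with the longest introns, had 0.566 times the median of genes with over 80000 nt of intron, above 7.02% of them, and 0.693 times that of genes with transcripts like its own. Beside genes of similar length, the transporters and Pfkp were thus above the class median and the other 7 members below it in this comparison, with Hk2 at 0.919 times.

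**Figure D4:**
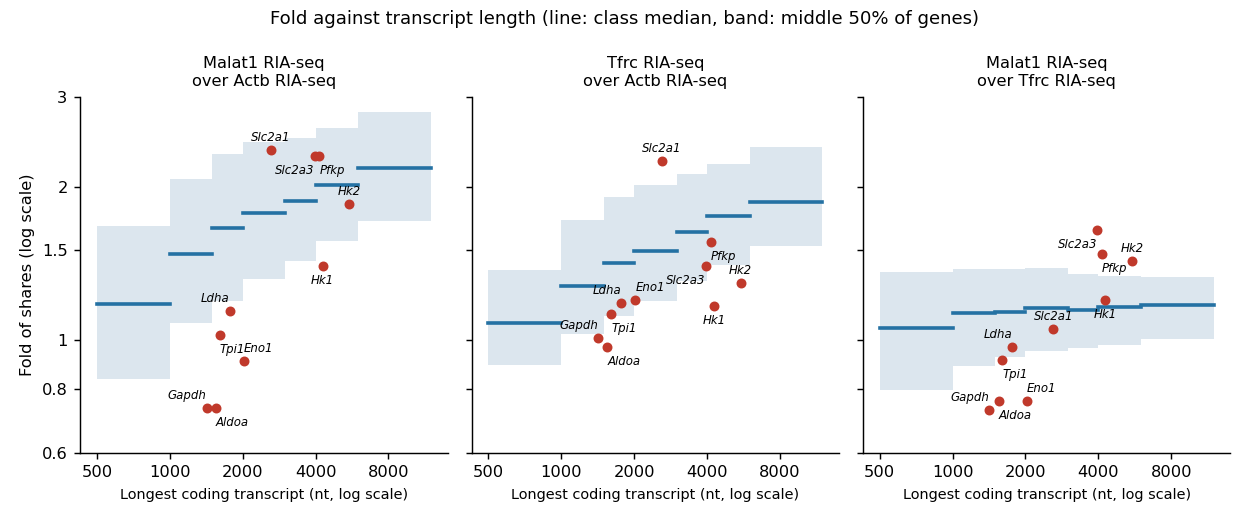
Fold of library shares against the length of the longest coding transcript, both on log axes, with the 10 genes as points, the median of each length class of protein-coding genes as a line and its middle 50% as a band. In the left panel Gapdh and Aldoa lie below the band of their classes (medians 1.48 and 1.66), as do Tpi1, Ldha, Eno1 and Hk1. Slc2a3 lies above its class median of 1.88 there. In the right panel Slc2a3, Pfkp and Hk2 lie above the band, and Aldoa, Tpi1, Gapdh and Eno1 lie below it.

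Reads of some members could be shared with other genes. The Gapdh transcript had stretches of at least 300 nt at 90% identity or more in 75 other genes, 44 of them annotated as pseudogenes, and 71 of the 75 had counts. These genes together had 23858 Ensembl-ID counts in the Actb library, 15084 in the Malat1 library and 32053 in the Tfrc library, which is 347%, 322% and 333% of those of Gapdh itself. Among them Gm13394 on chromosome 2, identical to Gapdh at 99.8% over 1251 nt, had 2516, 1634 and 3494 counts. The level of Gapdh is therefore uncertain, since how reads with several matches were counted is not given in the sources used here. Summed with these copies, Gapdh had a fold of 0.671 (0.659 to 0.683) between the Malat1 and Actb libraries and of 0.972 (0.958 to 0.986) between the Tfrc and Actb libraries. The fold in the Malat1 library thus stayed below 1 with the copies, and that in the Tfrc library went from just above 1 to just below it.

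Eno1 shared 1636 nt at 99.6% identity with Gm13699, a pseudogene on chromosome 2 with 997, 562 and 1569 counts in the Actb, Malat1 and Tfrc libraries, and with Gm5506, a predicted gene with 1029, 517 and 1569 counts. With both added, the fold of Eno1 between the Malat1 and Actb libraries was 0.770 (0.739 to 0.803). The 8 pseudogenes of Ldha had 5, 7 and 6 counts in all and the 2 copies of Aldoa at most 4, so that their folds hardly moved. Slc2a3, Slc2a1, Hk1, Hk2 and Tpi1 had no such copies. Pfkp overlaps Pitrm1 on the opposite strand by 372 nt of exon, and Pitrm1 had 595, 563 and 973 counts, so without strand the reads of that stretch cannot be told apart. Gm12868, on the opposite strand of Slc2a1, had 22, 140 and 155 counts. The pseudogene Gm4482, which lies within Slc2a3, was listed in none of the libraries.

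Other genes of the pathway gave a background for the members. Of 20 other glycolytic enzymes, 13 had at least 10 counts in the Malat1 and Actb libraries, their median fold was 1.66, and 4 had a fold of at least 2. The highest was Pgam2, the muscle phosphoglycerate mutase, with 3.48 from 19 and 64 counts, and the lowest was Eno3, the muscle enolase, with 0.947. Between the Tfrc and Actb libraries their median was 1.29. Of 9 other genes of the SLC2A family, not all of them chiefly glucose transporters, only 4 passed the minimum, all with low counts. Their median fold was 2.79 in the Malat1 library. Summed, these 9 genes had 11.4, 30.2 and 26.3 CPM, so Slc2a3 and Slc2a1 carried nearly all counts of the family examined here. All 15 regulators and genes of pyruvate or lactate handling passed the minimum, with a median fold of 2.01 and 8 folds of at least 2, from 0.870 in Pdk2 to 2.92 in Pfkfb1. Beside these medians, that of the members was 1.27 and that of all genes 1.82, and a fold of at least 2 was seen in 42.1% of all genes. Of the enzymes that act between or after the members, 4 with many counts were picked after their values were seen. Gpi1 had a fold of 1.36, Pgk1 of 1.57, Pgam1 of 1.71 and Pkm2 of 1.66. Pgk1, Pgam1 and Pkm2 act further down the pathway, and each was highest in the Malat1 library and lowest in the Actb library. The lower folds of the members from Aldoa to Ldha thus did not extend to all enzymes down the pathway. All 4 picked enzymes were still below the median gene of 1.82. Of the 13 other enzymes with a fold, 2 were below 1, namely Eno3 and the lactate dehydrogenase gene Ldhb with 0.954.

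The genes most like Slc2a3 in their folds over the Actb library were taken as those at the smallest distance in the 2 log2 folds, among 864 genes with at least 1000 counts in each library. Akap8 was nearest with folds of 2.27 in the Malat1 library and 1.42 in the Tfrc library, at a distance of 0.0277 log2 units, followed by Fam60a with 2.29 and 1.45 and Trim6 with 2.38 and 1.44. In all 6 of these 864 genes lay within 0.1 log2 units of Slc2a3, over the 2 comparisons with their common control.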

How the data were processed

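RNA recovered with antisense oligonucleotides against Actb, Malat1 or Tfrc was sequenced in 1 library per condition. The authors deposited raw read counts per gene, whole numbers without normalization, under an Ensembl identifier and under the name Genome. The submitters' processing notes name Bowtie 0.12.7 and the builds mm9 and NCBIM37. The role of the tool, the counting rule and the use of strand are not given in the sources used here. Groups came from the treatment labels.

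Both kinds of count were summed per gene symbol and chromosome and divided by the library total, which was 10405209 counts (Actb), 10078439 (Malat1) and 14553941 (Tfrc). Folds are ratios of these shares with a pseudocount of 0 and a 95% counting interval on the log scale. A share has a Wilson interval, and 3 counts, taken as the floor of detection, were between 0.206 and 0.298 counts per 1000000 (CPM). Both intervals cover counting error only and treat each read as independent. PCR reads without molecular identifiers are not independent molecules, so the intervals can be too narrow even for counting error. Values over all genes are for those with 10 counts or more in each library compared. The chi-square test planned for the folds compares 2 libraries and not conditions, and is not printed. Lengths, exons and sequences came from GENCODE M1 (Ensembl release 65) on NCBIM37, in which 98.6% of the identifiers were found. Copies were searched with BLAST+ 2.17.0. Python 3.11.15 with pandas 2.3.3 and scipy 1.17.1 was used. The calculation of the folds was run on simulated counts: of 200 genes changed 3-fold, 93.5% were recovered within a factor of 1.5 for Malat1 over Actb RIA-seq (14572 genes), 93.0% for Tfrc over Actb RIA-seq (14691 genes) and 95.0% for Malat1 over Tfrc RIA-seq (16430 genes). The simulated counts held counting error only, without the shift of the median gene or a spread between libraries. These rates therefore describe the count depth and not how far the folds of these libraries would repeat.

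Named are all 10 members, the 3 targets, the 3 genes nearest to Slc2a3, genes that share sequence or overlap with a member, and the extremes of the pathway lists. Lars2, Gpi1, Pgk1, Pgam1, Pkm2, Ldhb and the marker genes were named after their values were seen. The members and all lists were chosen with earlier results of these data known. Alternatives were 4 other library scalings, either kind of count alone, a pseudocount of 1, a fold limit of 1.5 and other count minimums.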

Additional observations from a re-analysis of the deposited data

How the results depend on the processing

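In the order Malat1 over Actb, Tfrc over Actb and Malat1 over Tfrc, the fold of Slc2a3 was 1.26, 0.894 and 1.43 and the median of the members 0.697, 0.764 and 0.873 with folds taken relative to the median gene. They were 1.29, 0.919 and 1.42, and 0.716, 0.785 and 0.866, with the 75th percentile of the counts made the same in each library, and 1.43, 0.993 and 1.44, and 0.793, 0.848 and 0.884, with library totals that left out the 10 genes with the most counts. Under each of these 3 scalings 0 members had a fold of at least 2 in Malat1 over Actb and 0 in Tfrc over Actb. The share of all genes at that limit under these scalings is not given here, so these counts have no background beside them. Each of these scalings divides all folds of a comparison by 1 factor, and the interval of the last value of Slc2a3 in Tfrc over Actb (0.958 to 1.03) included 1. With the 3 targets left out of the totals, Slc2a3 had 2.15 in Malat1 over Actb and 1.30 in Tfrc over Actb, where the median of the members was 1.11.

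With Ensembl-ID counts only, the median of the members was 1.04 in Malat1 over Actb and 0.969 in Malat1 over Tfrc, and Slc2a3 had 2.28 times the median of the other members in Malat1 over Actb. With Genome counts only, Slc2a3 had 4.56, 2.91 and 1.57, and the median was 4.49, 2.75 and 1.54. Slc2a3 then had 1.03 and 1.12 times the median of the others over Actb, with 10 and 8 members at a fold of at least 2. The medians and these counts include Tpi1, which had only 4 Genome counts in the Actb library. With at least 10 Genome counts in both libraries, 9 and 7 members reached that fold, against 88.6% and 79.6% of all genes. A fold limit of 1.5 gave 2 members in Tfrc over Actb, against 53.3% of all genes. In settings chosen after seeing the data, Genome counts scaled to their own totals gave Slc2a3 1.26, 1.01 and 1.24. They gave medians of 0.957 in Tfrc over Actb and 1.22 in Malat1 over Tfrc, and Pfkp 0.948 in Malat1 over Actb, the reverse of its direction. In either comparison over Actb 0 members then had a fold of at least 2, again without a share of all genes beside it. Ensembl-ID counts scaled to their own totals gave Slc2a3 2.61, 1.51 and 1.73. Adding near-identical copies, also chosen then, could not move the values of Slc2a3, which had none. A value was taken as moved when it left its interval or, for counts, changed by over 1.5 times. The copies moved 5 values, none of them a median of the members, and left 32 the same. A pseudocount of 1, small beside the summed counts of the members, left all 37 the same. The cause of these differences was not tested.

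Slc2a3 kept its direction in Malat1 over Actb and in Malat1 over Tfrc under every setting tried. No paired analysis was possible because each condition has 1 library, and leaving out a replicate was not possible for the same reason. Hk1 had the fewest summed counts, and the Genome counts of Tpi1, Aldoa and Hk1 in the Actb library were 4, 26 and 36.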
